A study of Mus musculus with 6 samples.

Results

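The transcription factor Myc and 35 ribosome biogenesis factors were followed in regenerating mouse liver with and without aquaporin 5 (Aqp5), a water channel protein. The 36 genes were taken from a fixed list of symbols matched to the gene names of a table of gene counts. The match used no measured value, although the list was drawn up with earlier results of these data known. Of the 36, 34 had a row among the 16858 genes of the table, and 33 passed the filter on low counts that left 12353 genes for testing. Nip7 and Wdr43 were not analysed here. Tsr1, an assembly factor of the late small subunit, did not pass the filter, with 10, 0 and 0 counts in the Aqp5-/- libraries against 0, 3 and 2 counts in the Aqp5+/+ libraries.

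Total RNA was depleted of ribosomal RNA and sequenced from livers taken 72 h after 70% partial hepatectomy (PHx), surgery that removes most of the liver and sets off regrowth. The groups were 3 libraries from Aqp5-/- mice, in which CRISPR/Cas9 had disrupted the gene in the whole body and not only in hepatocytes, and 3 libraries from Aqp5+/+ mice. The study's methods name C57BL/6 mice beside the Aqp5-/- line, without stating the background of that line, and describe partial hepatectomy on 3-month-old male mice. Whether each library stands for its own mouse is not stated in the sources used here, and the p-values below then cover only library-to-library spread, part or all of which may be technical. The question put to these genes was whether the Aqp5-/- liver at 72 h after PHx differed from the Aqp5+/+ liver in the machinery that builds ribosomes.

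Library totals were 11293358 to 15550006 counts in Aqp5-/- livers and 7130831 to 13526632 counts in Aqp5+/+ livers. Aqp5 itself was not analysed here, so the genotype labels were not checked on the targeted gene. The 4 Y-linked genes of a control list summed to between 0.869 and 1.19 CPM (counts scaled to the library total, corrected by edgeR trimmed-mean (TMM) factors) in the Aqp5-/- libraries, against between 287 and 471 CPM in the Aqp5+/+ libraries. These values go against male animals, as the methods describe them, for all 3 Aqp5-/- libraries. Genotype and sex-linked expression therefore cannot be told apart in any comparison below. The 13 hepatocyte markers summed to between 125210 and 130060 CPM in Aqp5-/- livers and between 86882 and 142390 CPM in Aqp5+/+ livers, so the labelled tissue was matched by its markers in both genotypes. Aqp5-/- replicate 3 and Aqp5+/+ replicate 2 stood apart from the other libraries. Over all tested genes, Aqp5-/- replicate 3 was the highest library in 25.3% and the lowest in 23.7%. Aqp5+/+ replicate 2 was the highest in 27.9% and the lowest in 29.1%. In Aqp5-/- replicate 3 the 13 stellate cell and matrix markers summed to 3290 CPM, where the other 5 libraries held 642 to 901 CPM. Its 10 cholangiocyte markers summed to 473 CPM, where the other 5 held 76.7 to 217 CPM. Aqp5+/+ replicate 2 was the shallowest library, with 38 S and M phase cell cycle genes summing to 205 CPM, where the other libraries held 629 to 1058 CPM. Medians of the members and of their role groups that moved by over 1.5 times when a library was left out are also given without it.

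Ribosomes are built in the nucleolus. RNA polymerase I transcribes the ribosomal DNA, small nucleolar ribonucleoproteins (snoRNPs) guide the chemical modification of the precursor RNA, and a large set of assembly factors folds, cuts and packs it with ribosomal proteins into the small and large subunits. Myc binds DNA as a dimer with Max at the E-box and is known to promote transcription of many of these genes, as well as RNA polymerase I activity. In rodent liver, Myc mRNA is known to be induced soon after PHx as hepatocytes leave quiescence. The roles given below rest mainly on work in yeast and human cells.

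The letters that Myc-Max dimers are known to bind were located in the promoters of the members, to show where these genes carry them. RefSeq promoter windows (GRCm38.p6, from 250 bases before to 50 bases after the annotated start) were matched for 30 of the 36 genes, and Bop1, Fbl, Myc, Npm1, Rrp12 and Rrs1 were not matched. The E-box CACGTG, which reads the same on both strands, occurred in 6 of the 30 (20%), against 8.09% of 27025 genes with a window. The related letters CACGCG, searched on both strands as CACGCG and CGCGTG, occurred in 10 of the 30 (33.3%), against 10.5% of all genes. The paired CACGCG and CGCGTG matches of Mybbp1a overlap each other. Matches are descriptions of the letters and not shown binding sites. The genes with a window include genes not tested here, and base composition was not matched, so these shares are no test of enrichment. The 6 E-box windows are printed with the E-box in capitals, 5′ to 3′ along the gene's own strand for every member whose window holds it.
Nop2: gtccctggatCACGTGtgttccggtg
Utp20: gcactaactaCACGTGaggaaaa
Pes1: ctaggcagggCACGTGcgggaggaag
Mybbp1a: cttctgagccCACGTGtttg
Tsr1: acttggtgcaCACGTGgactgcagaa
Wdr43: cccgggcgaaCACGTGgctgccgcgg

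The Nop2 stretch lies at chr6:125131813-125131838 on the plus strand, with the E-box 60 bases before the start, and was the only E-box of the 6 that lay before it. The Utp20 stretch lies at chr10:88826765-88826787 on the minus strand, with the E-box 37 bases after the start. The Pes1 E-box sits 2 bases after the start, in chr11:3963967-3963992 on the plus strand, and the Mybbp1a E-box 40 bases after it, in chr11:72441357-72441376 on the plus strand. The Tsr1 and Wdr43 E-boxes sit 24 and 17 bases after their starts, in chr11:74898094-74898119 and chr17:71616222-71616247, both on the plus strand. The 10 members with the related letters were Bysl, Ddx21, Mybbp1a, Nhp2, Nip7, Nolc1, Nop10, Nop16, Pes1 and Utp15. From these, 5 are shown with the letters in capitals along the gene's strand, chosen after their values were seen: Ddx21 and Bysl, with libraries that did not overlap between genotypes (below), and Utp15, Nop10 and Nop16, with overlapping libraries and fold changes near or below 0.
Ddx21: tctctcctagCACGCGgttgag
Bysl: tccagaccttCACGCGaacggcggcc
Utp15: ctggactgtcCGCGTGattttgagcg
Nop10: gttgttggcgCACGCGattgaagcgg
Nop16: agactattaaCACGCGgctctgagag

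The Ddx21 stretch lies at chr10:62602249-62602270 on the minus strand, with the letters 38 bases after the start. The Bysl stretch lies at chr17:47611606-47611631 on the minus strand, with the letters 129 bases before the start. The Utp15 stretch lies at chr13:98262969-98262994 on the minus strand, with the letters 8 bases after the start. The Nop10 stretch lies at chr2:112261940-112261965 on the plus strand and the Nop16 stretch at chr13:54590031-54590056 on the minus strand, with the letters 24 and 28 bases after their starts.

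No member differed between Aqp5-/- and Aqp5+/+ livers at the threshold of an adjusted p under 0.05. Most differences pointed to slightly higher levels in Aqp5-/- livers: 25 of the 33 tested members had a log2 fold change (Aqp5-/- over Aqp5+/+) above 0 and 8 below it, against 51% of all tested genes above 0. With library totals alone as scaling, which shifts the median of all genes to 0.17, 32 of the 33 were above 0. Under that scaling 8013 of the 12353 tested genes were also above 0. The median over the 33 was 0.19, against 0.01 over all tested genes. Npm1 and Ddx21 had the smallest p-values, and Myc had the lowest fold change of all 33.

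With Benjamini-Hochberg adjustment, the quasi-likelihood test of edgeR called 41 of the 12353 genes (0.332%), 19 higher (0.154%) and 22 lower (0.178%) in Aqp5-/- livers. None of the 33 members was among them, and the smallest adjusted p of a member was 0.47, for Npm1. At an unadjusted p under 0.05 the members counted 2 higher and 0 lower, against 8.78% of all tested genes in either direction, 4.3% higher and 4.48% lower. DESeq2 called 1.95% of genes, edgeR's exact test 1.78% and limma 0.364%, and each of these called 0 members. With a background this sparse, 0 of 33 is close to the share over all genes. The members were measured more tightly than most genes: the median standard error (SE) of their log2 fold changes was 0.25, against 0.34 over all tested genes. For 24 of the 33, the 95% interval of the log2 fold change lay between -1 and 1, so a 2-fold difference in either direction lay outside it.

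**Figure D1:**
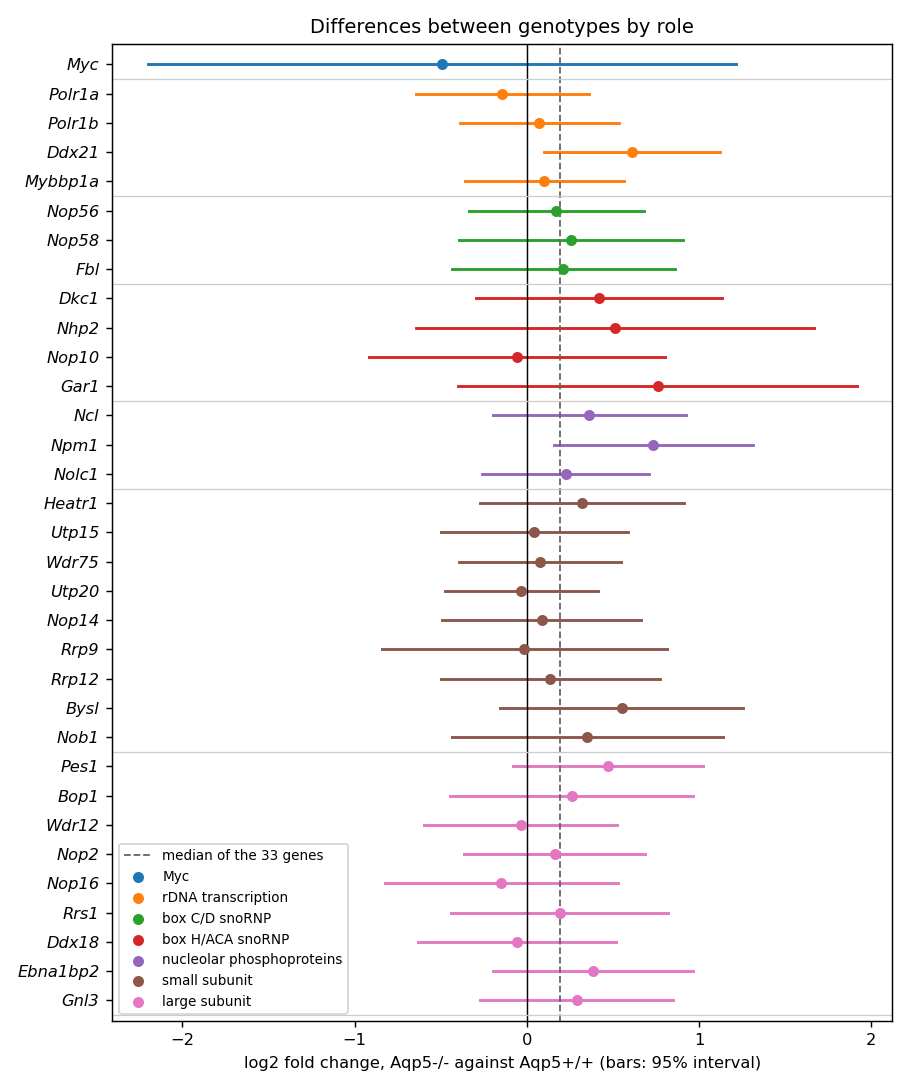
Log2 fold change (Aqp5-/- against Aqp5+/+, horizontal axis) of each of the 33 tested members, with its 95% interval as a bar, coloured by role, and the median of the 33, 0.19, as a dashed line. Only the intervals of Npm1 and Ddx21 lie wholly above 0, before any adjustment, and the interval of Myc is the widest, reaching -2.20 and 1.22.

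The libraries of the 2 genotypes did not overlap in 5 members, which were Npm1, Ddx21, Bysl, Pes1 and Ebna1bp2. All 5 were higher in every Aqp5-/- library than in any Aqp5+/+ library, and 0 members were lower in every one. Over all tested genes, 14.7% did not overlap, 6.93% being higher and 7.8% lower in Aqp5-/- livers. The 5 members are 15.2% of the 33, so the share without overlap was close to that of all genes. The direction was the same in all 5, which was not tested, and it was not shared by the other small subunit assembly factors (below).

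Myc (chr15:61985391-61990374, mm10) varied more between libraries of a genotype than between genotypes. It stood at 5.68, 8.26 and 29.5 CPM in Aqp5-/- libraries, against 41.8, 11.3 and 8.14 CPM in Aqp5+/+ libraries, from 70, 95 and 496 counts against 499, 75 and 100 counts. In each genotype 1 library was far above the other two, Aqp5-/- replicate 3 and Aqp5+/+ replicate 1, and the genotypes overlapped. The range over the 6 libraries was 7.36-fold. The log2 fold change was -0.49 with an SE of 0.75 and an adjusted p of 0.84 by edgeR's quasi-likelihood test (unadjusted p = 0.53). The log2 fold change of Myc was -1.56 without Aqp5-/- replicate 3 and 0.58 without Aqp5+/+ replicate 1, and only leaving out the second of these changed its sign. Each of the other 4 libraries also moved its size: it was -0.12 when Aqp5-/- replicate 1 was left out and -0.22 when Aqp5-/- replicate 2 was. Leaving out Aqp5+/+ replicate 2 gave -0.78, and leaving out Aqp5+/+ replicate 3 gave -0.88.

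The other 32 members followed the library order of Myc only in part. Relative to the mean of the Aqp5+/+ libraries on the log2 scale, Myc stood at -1.44, -0.91 and 0.90 in Aqp5-/- libraries and at 1.41, -0.47 and -0.93 in Aqp5+/+ libraries. The medians of the other 32 stood at 0.14, 0.12 and 0.33 in Aqp5-/- libraries and at 0.03, 0.08 and -0.07 in Aqp5+/+ libraries. Aqp5+/+ replicate 1, the library with the most Myc, thus lay between Aqp5+/+ replicates 2 and 3 for the other members. For both, Aqp5-/- replicate 3 was the highest Aqp5-/- library and Aqp5+/+ replicate 3 the lowest Aqp5+/+ library. Leaving Myc out of the list changed the median log2 fold change of the members little, to 0.20.

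**Figure D2:**
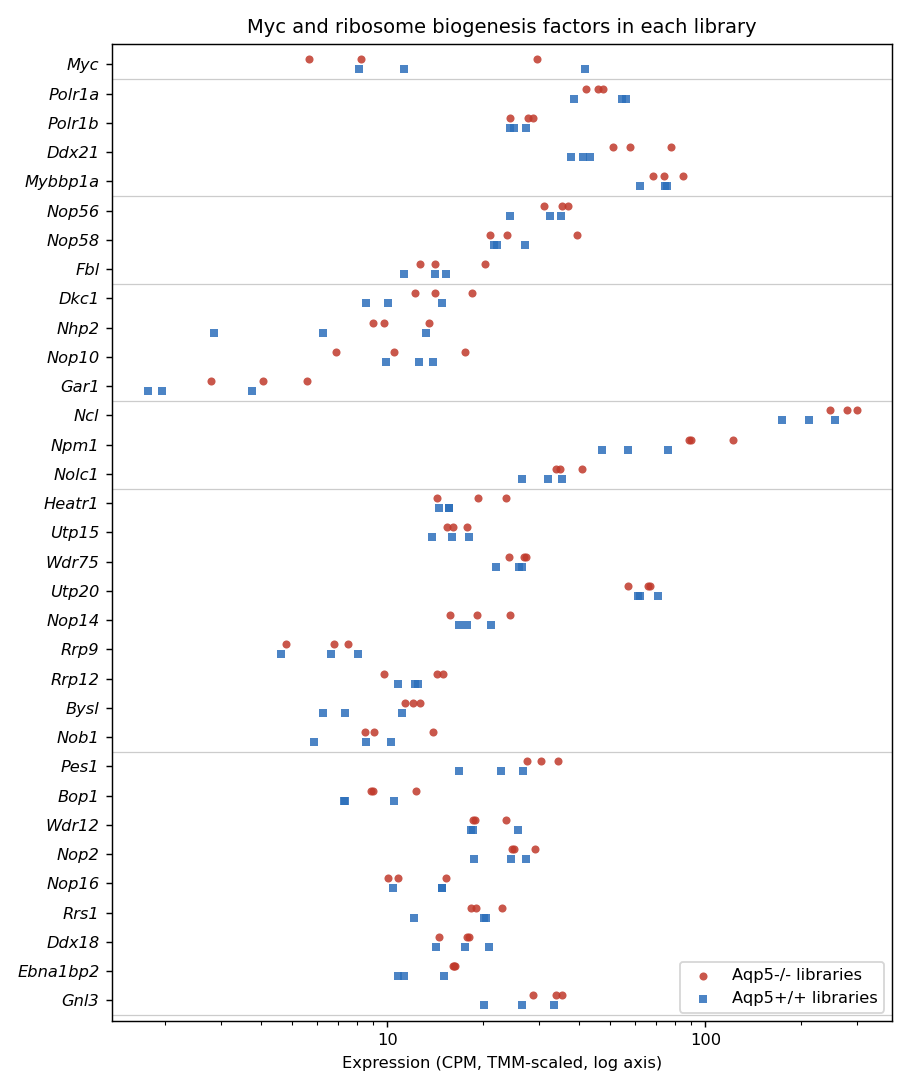
Expression of the 33 tested members in each library (CPM scaled by TMM, log axis), with Aqp5-/- libraries as circles above Aqp5+/+ libraries as squares in each row, grouped by role. Myc spans 5.68 to 41.8 CPM across the 6 libraries, while most other members keep within a narrow band, and the libraries of Npm1, Ddx21, Bysl, Pes1 and Ebna1bp2 separate by genotype.

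Among the 4 factors of ribosomal DNA transcription, with a median log2 fold change of 0.09 (0.03 without Aqp5-/- replicate 3), Ddx21 had the largest value. Ddx21, a nucleolar RNA helicase known to act both in RNA polymerase I transcription and in processing of its product (chr10:62580251-62602281), stood at 58.1, 51.3 and 77.9 CPM in Aqp5-/- libraries, against 43.5, 37.8 and 41.3 CPM in Aqp5+/+ libraries. All 3 Aqp5-/- libraries were above all 3 Aqp5+/+ libraries, and Aqp5-/- replicate 3 was the highest. The log2 fold change was 0.61 with an SE of 0.22, and edgeR's adjusted p was 0.49 (unadjusted p = 0.025). Polr1a, the largest catalytic subunit of RNA polymerase I, had a log2 fold change of -0.14, and Polr1b, the next largest, had 0.07. Polr1a stood at 42.0, 46.0 and 47.6 CPM in Aqp5-/- libraries, against 56.3, 54.8 and 38.7 CPM in Aqp5+/+ libraries, and its genotypes overlapped. Mybbp1a, a nucleolar protein that binds Myb, had a log2 fold change of 0.10 and the narrowest interval but 1 of all members, -0.36 to 0.56.

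The nucleolar phosphoproteins held the member with the smallest p-value. Npm1, nucleophosmin, is an abundant nucleolar chaperone of ribosome assembly and export (chr11:33152287-33163206). It stood at 89.0, 89.9 and 122 CPM in Aqp5-/- libraries, against 57.0, 47.5 and 76.5 CPM in Aqp5+/+ libraries. All Aqp5-/- libraries lay above all Aqp5+/+ libraries, and the highest Aqp5+/+ library was replicate 3. The log2 fold change was 0.73 with an SE of 0.25, and edgeR gave it an adjusted p of 0.47 (unadjusted p = 0.019). Over all alternatives the adjusted p of Npm1 stayed between 0.23 and 0.90. Reads from processed copies of Npm1 elsewhere in the genome could be split from it or added to it, since the treatment of reads with several matches is not given in the sources used here. Ncl, nucleolin, which binds precursor rRNA, stood at 279, 246 and 299.8 CPM in Aqp5-/- libraries, against 211, 174 and 256 CPM in Aqp5+/+ libraries. Aqp5+/+ replicate 3 lay above Aqp5-/- replicate 2, so the genotypes overlapped, and the log2 fold change was 0.36 with an SE of 0.25. Nolc1, a chaperone of snoRNPs also called Nopp140, had a log2 fold change of 0.23.

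The 4 proteins of box H/ACA snoRNPs, which turn uridines of rRNA into pseudouridines, centred on a log2 fold change of 0.46, with wide intervals. This median was 0.27 without Aqp5-/- replicate 3 and 0.20 without Aqp5+/+ replicate 2. Dkc1, the pseudouridine synthase itself, lies on the X chromosome (chrX:75095854-75109777), and the genotypes also differed in Y-linked expression (above). Dkc1 stood at 12.2, 14.1 and 18.5 CPM in Aqp5-/- libraries, against 10.1, 8.56 and 14.8 CPM in Aqp5+/+ libraries. Its log2 fold change was 0.42 with an SE of 0.31. Aqp5-/- replicate 3 was the highest library for all 4 proteins of this group. Gar1, which helps the enzyme to bind and release RNA, had the largest log2 fold change of the 33 members, 0.76, with an SE of 0.51. It was also the lowest in CPM, at 4.06, 2.78 and 5.59 in Aqp5-/- libraries against 1.76, 3.75 and 1.95 in Aqp5+/+ libraries, from 21 to 94 counts a library. Nhp2, a core RNA-binding subunit, stood at 9.74, 9.04 and 13.5 CPM in Aqp5-/- libraries, against 6.29, 2.85 and 13.3 CPM in Aqp5+/+ libraries. The low Nhp2 value rested on 19 counts in Aqp5+/+ replicate 2, and the genotypes overlapped through Aqp5+/+ replicate 3. Nop10, the smallest core protein of the particle, had a log2 fold change of -0.06 with an interval of -0.92 to 0.80.

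The 3 proteins of box C/D snoRNPs, which methylate the ribose of rRNA, had log2 fold changes with a median of 0.21, each between 0.17 and 0.25. Fbl, fibrillarin, is the methyltransferase and had 0.21, while Nop56 and Nop58, its paired scaffold proteins, had 0.17 and 0.25. Nop58 stood at 23.9, 21.0 and 39.5 CPM in Aqp5-/- libraries, against 27.1, 22.1 and 21.6 CPM in Aqp5+/+ libraries, so a single Aqp5-/- library set the difference. Without Aqp5-/- replicate 3 the log2 fold change of Nop58 was -0.07 and that of Fbl, then the median of the group, was -0.02. Without Aqp5-/- replicate 2 the median of the group was 0.33. Nop56 and Nop58 hold 5 and 4 annotated snoRNA genes on their own strand. In all, 7 of the 36 genes hold 21 such snoRNA genes (Ncl, Gnl3, Dkc1, Tsr1 and Wdr43 being the others), and the part of snoRNA reads in their counts was not tested.

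The 9 tested factors of the small subunit centred on a log2 fold change of 0.09, with 7 above 0. This median was 0.04 without Aqp5-/- replicate 3, 0.17 with 9 above 0 without Aqp5+/+ replicate 2, and 0.05 with 5 above 0 without Aqp5+/+ replicate 3. Heatr1, Utp15 and Wdr75 belong to the UtpA complex, which binds the precursor as it is transcribed, and had log2 fold changes of 0.32, 0.04 and 0.08. Utp20, a very large scaffold protein, had -0.03 with an interval of -0.48 to 0.41, and Nop14, a member of the small subunit processome, had 0.09. Rrp9, a protein of the U3 snoRNP, had -0.01 and Rrp12, which serves late in the export of the small subunit precursor, had 0.14. Nob1, the nuclease that cuts out the mature end of 18S rRNA, had 0.35 with an SE of 0.34. Bysl, bystin, is needed for maturation of the small subunit and stood at 12.0, 11.4 and 12.6 CPM in Aqp5-/- libraries, against 7.38, 11.1 and 6.27 CPM in Aqp5+/+ libraries. The genotypes of Bysl did not overlap, although Aqp5+/+ replicate 2 lay just under the lowest Aqp5-/- library. Its log2 fold change was 0.55 with an SE of 0.31 and an adjusted p of 0.62 by edgeR. Bysl is annotated to overlap the coding gene Ccnd3 on the opposite strand, as 11 other members overlap a coding gene, and whether the counting used strand is not given in the sources used here.

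The 9 tested factors of the large subunit had a median log2 fold change of 0.19, with 6 above 0. Without Aqp5+/+ replicate 3 this median was 0.02, with 5 above 0 and the median of all genes at 0.03. Pes1, Bop1 and Wdr12 form the PeBoW complex, needed for processing of the precursor to 28S rRNA, and had log2 fold changes of 0.47, 0.26 and -0.04. Pes1 stood at 30.3, 27.4 and 34.3 CPM in Aqp5-/- libraries, against 22.7, 16.8 and 26.6 CPM in Aqp5+/+ libraries, and its libraries separated narrowly by genotype. The SE of Pes1 was 0.24 and its adjusted p 0.60 by edgeR (unadjusted p = 0.083). Wdr12, its partner, stood at 18.8, 23.6 and 18.6 CPM in Aqp5-/- libraries, against 18.3, 25.7 and 18.6 CPM in Aqp5+/+ libraries, which overlapped almost wholly. The 3 partners of 1 complex thus had fold changes of unlike size, though the intervals of Pes1 (-0.08 to 1.03) and Wdr12 (-0.60 to 0.53) overlapped and the difference between them was not tested.

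Ebna1bp2, an assembly factor known in yeast as Ebp2, had the most even Aqp5-/- values of the list, at 16.1, 16.3 and 16.1 CPM, against 11.3, 10.8 and 15.1 CPM in Aqp5+/+ libraries. Its log2 fold change was 0.38 with an SE of 0.25 and an adjusted p of 0.68 by edgeR. Gnl3, nucleostemin, a nucleolar GTP-binding protein found in proliferating cells, had a log2 fold change of 0.29. Nop2, which methylates a cytosine of 28S rRNA, had 0.16. Rrs1, which helps to bring the 5S rRNA particle to the large subunit, had 0.19. Nop16 and the helicase Ddx18 had -0.15 and -0.06. The members with an E-box in the promoter window that were tested were thus spread over the list, with log2 fold changes of 0.47 for Pes1, 0.16 for Nop2, 0.10 for Mybbp1a and -0.03 for Utp20. Those with the related letters were spread more widely, with 0.61 for Ddx21, 0.55 for Bysl, 0.51 for Nhp2, 0.23 for Nolc1, 0.04 for Utp15, -0.06 for Nop10 and -0.15 for Nop16. Pes1 and Mybbp1a, given with the E-box, hold the related letters too. Ebna1bp2, whose libraries did not overlap, held neither motif in its window, and Npm1 had no matched window. A link between these letters and the fold changes was not tested.

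Per kilobase of exon, the members stood near the middle of the expressed genes. Their median level over the 6 libraries was 5.19 RPKM (CPM divided by exon length in kilobases), against 4.24 RPKM for the 12281 tested genes with an annotated exon length, and 19 of the 33 lay above that median. Npm1 was the highest at 30.2 RPKM, followed by Ncl at 24.0 RPKM and Mybbp1a at 12.6 RPKM. Wdr12 was the lowest at 1.72 RPKM and Gar1 the next at 1.94 RPKM. The exon length here merges the exons of every annotated transcript of a gene. It was 11955 bases for Wdr12 and 10188 for Ncl, against 2665 for Npm1, so this ranking also depends on the annotation. Myc, as a mean of very unequal libraries, stood at 6.42 RPKM.

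The upward lean of the members was uneven between libraries. Relative to the mean of the Aqp5+/+ libraries, the members' median log2 level was 0.12, 0.10 and 0.34 in Aqp5-/- libraries, against 0.04, 0.08 and -0.08 in Aqp5+/+ libraries. Aqp5-/- replicate 3 was the highest of the 6 libraries in 19 of the 33 members (57.6%), against 25.3% of all tested genes, and the lowest in 0. Aqp5+/+ replicate 3 was the highest in 0 and the lowest in 13 (39.4%), against 14.4% of all tested genes. Without Aqp5-/- replicate 3, the median log2 fold change of the members was 0.09, 0 members had an unadjusted p under 0.05 and 23 of 33 were above 0. Without Aqp5+/+ replicate 2, the median was 0.18, 2 members had an unadjusted p under 0.05 and 29 of 33 were above 0. Without Aqp5+/+ replicate 3, the median was 0.12, 4 members had an unadjusted p under 0.05 and 23 of 33 were above 0. In that setting the count over all genes rose too: 827 were higher and 863 lower of 12705 at this threshold. With all libraries it was 531 higher and 553 lower of 12353. Without Aqp5-/- replicate 3 it was 321 higher and 408 lower of 12546. In bulk tissue, fewer cells of a type and less RNA per cell cannot be told apart.

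Markers of other cells also differed between the libraries, not always in the library order of the members. The macrophage list summed to between 854 and 1725 CPM in Aqp5-/- livers, against 394 to 686 CPM in Aqp5+/+ livers, with 12 of 12 tested markers above 0 and 10 at an unadjusted p under 0.05. The neutrophil list summed to between 36.4 and 149 CPM in Aqp5-/- livers, against 8.41 to 32.7 CPM in Aqp5+/+ livers, and 1 of its 10 tested markers, the granule gene Ngp, was called, with an edgeR adjusted p of 0.048. Ngp was called in 4 of the 14 other settings and in none of the 6 that left out a library. Ngp was at 0 counts in 2 of the 3 Aqp5+/+ libraries. Aqp5-/- replicate 3, the library in which most members were highest, also had the highest sum for the macrophage, neutrophil, stellate and cholangiocyte lists. The endothelial list, with 10 of 12 tested markers below 0, summed to between 383 and 610 CPM in Aqp5-/- livers and between 460 and 904 CPM in Aqp5+/+ livers. The lymphocyte list, with 11 of 13 tested markers below 0, summed to between 6.84 and 25.99 CPM in Aqp5-/- livers and between 19.5 and 61.4 CPM in Aqp5+/+ livers. The erythroid list summed to between 52.5 and 89.6 CPM in Aqp5-/- livers and between 72.7 and 156 CPM in Aqp5+/+ livers, with Gata1 at 0 in all libraries. Alas2 of this list, the erythroid enzyme that starts heme synthesis, was called lower in Aqp5-/- livers, with a log2 fold change of -2.21 and an edgeR adjusted p of 0.025, and it was called in 10 of the 14 other settings. The part of these cells in the members' values was not tested.

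**Figure D3:**
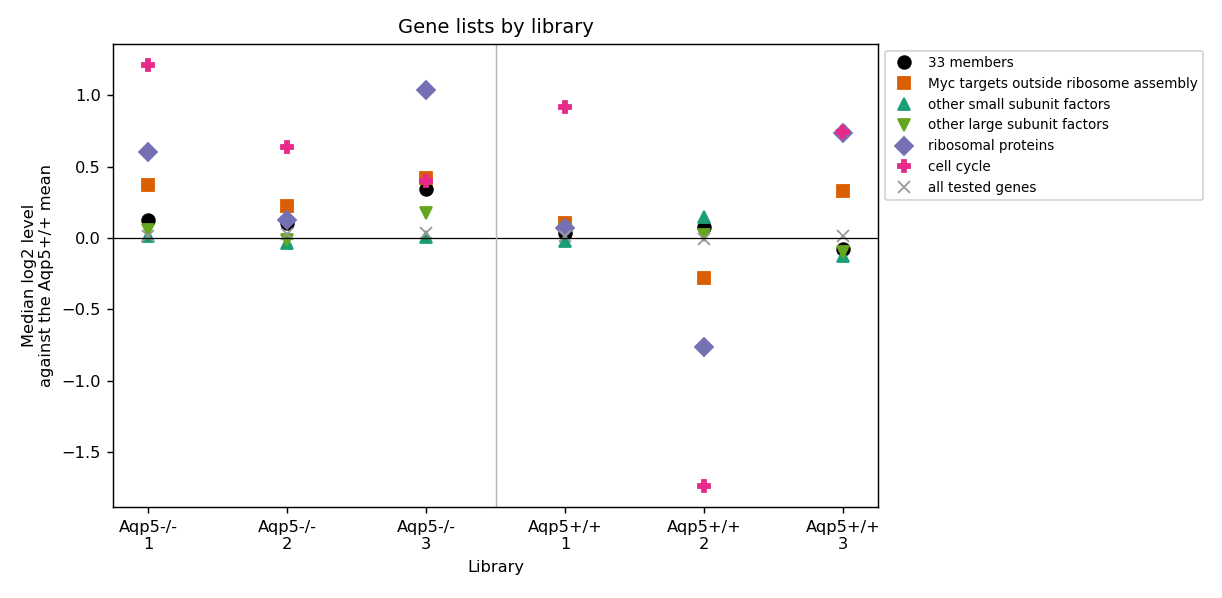
Median log2 level of each gene list in each library, relative to the mean of the 3 Aqp5+/+ libraries, with the 3 Aqp5-/- libraries on the left and the Aqp5+/+ libraries on the right. The 33 members (black) stay between -0.08 and 0.34, while ribosomal protein and cell cycle genes spread far more and are lowest in Aqp5+/+ replicate 2.

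The wider pathway was read from further lists, none of which had a called gene. The other 15 tested factors of RNA polymerase I and ribosomal DNA transcription centred on a log2 fold change of 0.01 by their median, the other 43 of the small subunit -0.04 and the other 50 of the large subunit 0.03. Over all settings the medians of these 3 lists lay between -0.09 and 0.10 relative to the median of all genes. Twistnb, a subunit of RNA polymerase I, was the only one of the polymerase list with an unadjusted p under 0.05, at 17.2 ± 1.77 CPM (mean ± SD of 3 libraries, here and below) in Aqp5-/- livers and 10.2 ± 3.60 CPM in Aqp5+/+ livers. The log2 fold change of Twistnb was 0.75 with an edgeR adjusted p of 0.55. In the small subunit list 2 genes had an unadjusted p under 0.05, and both were lower in Aqp5-/- livers. Rcl1, which in yeast cuts the precursor rRNA, stood at 68.3 ± 17.04 CPM in Aqp5-/- livers and 116 ± 17.3 CPM in Aqp5+/+ livers, a log2 fold change of -0.77 with an edgeR adjusted p of 0.44. Aatf, a nucleolar partner of small subunit assembly, stood at 25.5 ± 2.76 CPM in Aqp5-/- livers and 38.1 ± 9.90 CPM in Aqp5+/+ livers, a log2 fold change of -0.58. In the large subunit list 0 genes had an unadjusted p under 0.05. Genes without overlap between genotypes numbered 1 higher and 6 lower in the small subunit list. They numbered 1 higher and 1 lower in the large subunit list, and 2 higher and 0 lower in the polymerase list.

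The Myc partners and rivals and the known Myc targets were also read. The Myc dimerization network (Max, its Mxd and Mlx relatives and cofactors) had 12 tested genes, a median log2 fold change of 0.10 and 0 genes at an unadjusted p under 0.05. Mnt, a repressor that competes with Myc for Max, had 0.49, and Zbtb17, also called Miz1, had -0.60. Known Myc targets outside ribosome assembly had a median of 0.30, with 39 of 45 above 0 and 6 at an unadjusted p under 0.05, all higher in Aqp5-/- livers. Among these, Slc19a1, the reduced folate carrier, stood at 8.83 ± 3.04 CPM in Aqp5-/- livers and 3.45 ± 0.880 CPM in Aqp5+/+ livers, a log2 fold change of 1.36 with an edgeR adjusted p of 0.38. Tfrc, the transferrin receptor that brings iron into cells, had a log2 fold change of 0.69, and Cdc25a, a phosphatase that releases cyclin-dependent kinases, had 1.24. Prmt1 of this list had 0 counts in all libraries, and the reason for this was not tested.

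The ribosomal proteins, the cargo of this machinery, had a median log2 fold change of 0.51, against 0.19 for the members, with 72 of 74 tested genes above 0, 1 at an unadjusted p under 0.05 (Rps27a) and 0 called. The list summed to 5886, 4310 and 7823 CPM in Aqp5-/- libraries, against 4139, 2349 and 6544 CPM in Aqp5+/+ libraries, which overlapped. Without Aqp5-/- replicate 3 its median was 0.24 and without Aqp5+/+ replicate 2 it was 0.19, where the members' median was 0.18, so the gap between these lists was not seen without that library. Without Aqp5+/+ replicate 3 the median was 0.92, and 39 ribosomal protein genes then had an unadjusted p under 0.05, with 0 called. Over all 12705 genes in that setting, 827 were higher and 863 lower at this threshold. The same left-out libraries gave the Myc targets medians of 0.23, 0.17 and 0.52. Ribosomal protein genes have many processed copies in the genome, so their counts are uncertain.

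**Figure D4:**
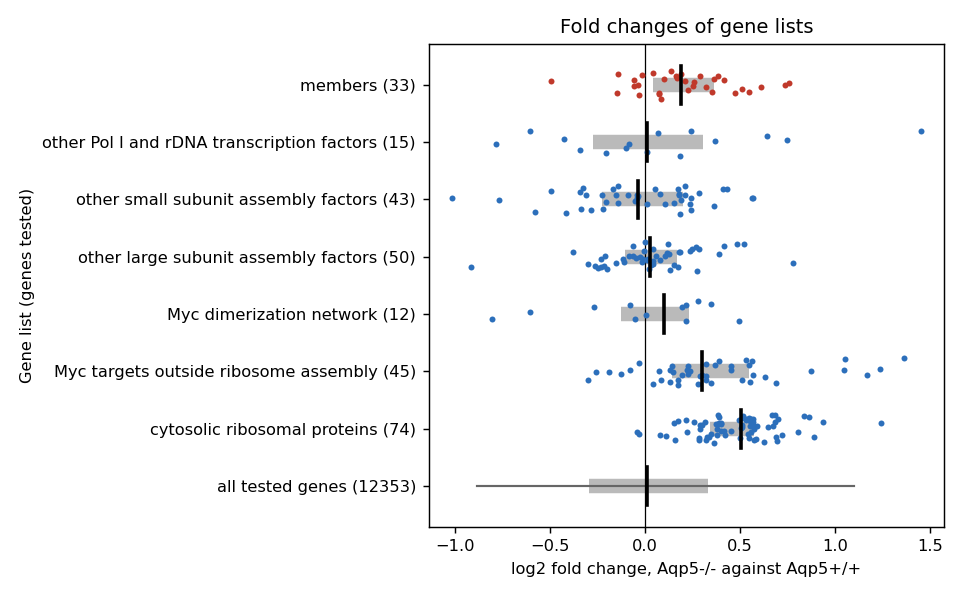
Log2 fold change (Aqp5-/- against Aqp5+/+) of each tested gene as a point, by list, with the median as a black line and the middle 50% of the list as a grey bar. For all 12353 tested genes, points are left out and the thin line spans the 5th to the 95th percentile. With all 6 libraries, the members (median 0.19) lie between the other assembly factors (medians -0.04 to 0.03) and the ribosomal proteins (median 0.51).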

How the data were processed

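Liver RNA of 3 Aqp5-/- and 3 Aqp5+/+ libraries was depleted of rRNA and sequenced. The labels name GenSeq kits for depletion and library construction, whereas the study's methods name a stranded TruSeq kit, so the kit is unsettled. The submitters' processing notes name cutadapt 1.9.3, HISAT2 2.0.4 and genome build mm10, and the study's methods name HTSeq counting. The authors deposited raw read counts per gene for the whole series, and these counts were used. Another 6 columns of per-sample values, normalized by the authors, were not used, and neither were the columns of the authors' own fold changes and p-values. Total counts per library limit the precision of low genes such as Gar1.

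Genes were kept by edgeR's filterByExpr (minimum count 10, minimum total 15). Libraries were scaled by TMM, and genotypes were compared with the two-sided quasi-likelihood test of edgeR 4.0.16 (R 4.3.3, robust fit), with Benjamini-Hochberg adjustment over all 12353 genes and a call at an adjusted p under 0.05. Log2 levels used a prior count of 2. Exon lengths and positions came from GENCODE (16666 of 16858 genes matched). The steps of the main edgeR test were also tried on simulated counts. Members, roles and lists were chosen with earlier results of these data known. For the pathway lists, the named genes were up to 3 per list with the smallest p-values, and members were named by role. Alternatives were DESeq2 1.42.0, limma 3.58.1, edgeR's exact test, other scalings and filters, a replicate block, and leaving out each library.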

Additional observations from a re-analysis of the deposited data

How the results depend on the processing

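In all 14 other settings 0 members were called, the members' median log2 fold change stayed above 0 and the lowest adjusted p of any member was 0.23. Calls over all genes numbered 41, against 240 with DESeq2 and 220 with edgeR's exact test. Leaving out 1 library gave 4 to 45 calls (26 without Aqp5-/- replicate 1, 4 without Aqp5-/- replicate 2, then 4, 17 and 16 on leaving out Aqp5+/+ replicates 1, 2 and 3). It gave 0 to 4 members at an unadjusted p under 0.05: 1 without Aqp5-/- replicate 1, 0 without Aqp5-/- replicate 3 or Aqp5+/+ replicate 1, and 4 without Aqp5+/+ replicate 3, where the main count was 2. The count over all genes moved as well. It was 321 higher and 408 lower without Aqp5-/- replicate 3, and 827 higher and 863 lower without Aqp5+/+ replicate 3. The members' median ranged from 0.09 (without Aqp5-/- replicate 3) to 0.28 (without Aqp5+/+ replicate 1). With library totals alone as scaling it was 0.34, while the median of all genes was 0.17, which leaves the members 0.17 above all genes, against 0.18 with TMM. That scaling turned 7 members just under 0 to just above it: Rrp9 to 0.14, Nop16 to 0.023, Nop10 to 0.12, Polr1a to 0.0087, Ddx18 to 0.10, Utp20 to 0.13 and Wdr12 to 0.12. Leaving out 1 library changed the sign of 12 members. Their log2 fold changes ranged from -1.56 to 0.58 for Myc, -0.49 to 0.20 for Nop10, -0.21 to 0.17 for Rrp9, -0.19 to 0.080 for Ddx18, -0.16 to 0.13 for Wdr12 and -0.079 to 0.032 for Utp20. They ranged from -0.075 to 0.42 for Nop58, -0.019 to 0.33 for Fbl, -0.091 to 0.22 for Nop14, -0.051 to 0.13 for Utp15, -0.0071 to 0.12 for Wdr75 and -0.022 to 0.32 for Rrs1. The other 19 members kept their sign in every setting. The cause of these shifts was not tested. Libraries that share a replicate number had deviations correlated at -0.06, 0.23 and 0.15, Aqp5-/- replicate 1 did not correlate best with its own number, and the numbers were not taken as pairs. With a replicate block 39 genes and 0 members were called, 3 members had an unadjusted p under 0.05 and the members' median was 0.20, while the adjusted p was 0.057 for Alas2 and 0.13 for Ngp. Over all 12353 genes, 735 were higher and 813 lower at an unadjusted p under 0.05 with that block. A limma fit on the values normalized by the authors was not run. The 95% intervals of some members were wide enough to hold a 2-fold difference, among them Gar1, Nhp2, Myc, Npm1, Ddx21 and Pes1.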

Other observations

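Cell cycle genes followed another library order than the ribosome biogenesis factors. Of 38 S and M phase genes, 34 had a log2 fold change above 0, with a median of 0.39, 1 at an unadjusted p under 0.05 (Mcm3, a subunit of the replicative helicase) and 0 called by edgeR, by an adjusted p under 0.05. Their summed level was 1058, 786 and 629 CPM in Aqp5-/- libraries, against 899, 205 and 777 CPM in Aqp5+/+ libraries. The lowest library was Aqp5+/+ replicate 2, and without it the median log2 fold change was -0.03, with 14 of 38 above 0. The median was 0.10, with 26 of 38 above 0, without Aqp5-/- replicate 1, 0.76 without Aqp5+/+ replicate 1 and 0.71 with limma. Aqp5-/- replicate 3, highest in most ribosome biogenesis factors, was the lowest of the 3 Aqp5-/- libraries in summed cell cycle level.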
